A study of Mus musculus with 4 samples.

Results

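Smad1 occupancy was examined at 10 regulators and surface proteins of hemangioblasts and endothelial cells, out of 21911 protein-coding genes of GENCODE M21. The genes were taken from a list by name, and every peak of 5 deposited lists that lay within 20 kb of their annotated gene bodies on mm10 was kept, which gave 44 of 76539 peaks. Peaks that overlapped across lists were merged, and the 44 peaks fell into 20 of 40600 merged loci. Kdr, Etv2, Fli1, Erg, Tek, Cdh5, Pecam1 and Sox18 had at least 1 listed peak, and Sox7 and Sox17 had 0.

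The study asked where Smad1 bound chromatin in mouse embryoid bodies (EBs) when Wnt signalling was inhibited. EBs are aggregates in which embryonic stem (ES) cells differentiate. They came from the GFP-Bry ES line, in which GFP is placed at the gene for the mesoderm factor Brachyury, and the strain was given as C57BL/6. The cells were reaggregated, kept for 24 h with the vehicle DMSO or with 10 µM IWR-1, an inhibitor of Wnt signalling, and collected on day 4. Each treatment had 1 Smad1 ChIP library and 1 input library, so differences between treatments have no replicate check. No expression was measured in these libraries, so hemangioblast and endothelial are names of the genes here and not of the cells.

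The 5 lists were a DMSO list from the peak caller MACS with 15927 peaks, a DMSO list from the caller QESEQ with 26070, a list of 10466 DMSO sites that the study kept as common to both callers, an IWR-1 QESEQ list with 16261, and a second MACS list with 7815. The sample labels and the lists disagreed: the common list and the DMSO MACS list were attached to the DMSO input, and the DMSO QESEQ list to the IWR-1 input. The DMSO lists were recognised by coordinates, since all 10466 common sites equalled a QESEQ interval and overlapped a peak of the DMSO MACS list. At an overlap of 1 bp, 11193 DMSO QESEQ peaks met a DMSO MACS peak, and 727 of them were not in the common list, 1 of these in a window of the regulators, in intron 14 of Pecam1. A second MACS list was attached to the sample labelled DMSO ChIP. Its deposited name gave IWR-1, against that sample label, and no other MACS list remained, so it was taken as IWR-1. Every statement that uses it rests on that choice. Read counts were not part of these lists, so the depth of each peak is unknown, and a site without a call is one that did not pass the threshold of a caller.

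Hemangioblasts are mesodermal progenitors that can give rise to blood and endothelium. The VEGF receptor Kdr marks them, and the ETS factor Etv2 acts early in their formation, before Fli1, Erg and the SoxF factors maintain endothelial gene expression. BMP ligands act through Smad1, which enters the nucleus with Smad4 and binds short GC-rich or CAGA-type elements, often beside lineage factors such as GATA proteins.

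The sequences that carry the calls are shown as the central 200 bp of each peak. They are 4 of the 5 common DMSO sites of the regulators, the lone peaks upstream of Kdr and Cdh5, the IWR-1 peak near Etv2, and a Pecam1 peak with both a Smad and a GATA element. All are from the plus strand of mm10, with capitals on Smad elements, GATA elements and runs of 7 or more A, read on both strands.
Kdr upstream, chr5:75994827-75995026: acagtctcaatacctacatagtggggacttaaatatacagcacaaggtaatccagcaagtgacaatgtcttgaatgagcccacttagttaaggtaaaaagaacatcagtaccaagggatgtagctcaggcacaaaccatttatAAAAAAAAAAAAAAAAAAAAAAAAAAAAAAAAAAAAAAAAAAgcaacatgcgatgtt
Etv2 common site, chr7:30613866-30614065: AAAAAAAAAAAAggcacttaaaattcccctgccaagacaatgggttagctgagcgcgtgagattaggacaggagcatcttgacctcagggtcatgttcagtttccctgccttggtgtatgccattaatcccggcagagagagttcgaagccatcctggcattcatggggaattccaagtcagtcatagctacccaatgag
Etv2 IWR-1 peak, chr7:30620669-30620868: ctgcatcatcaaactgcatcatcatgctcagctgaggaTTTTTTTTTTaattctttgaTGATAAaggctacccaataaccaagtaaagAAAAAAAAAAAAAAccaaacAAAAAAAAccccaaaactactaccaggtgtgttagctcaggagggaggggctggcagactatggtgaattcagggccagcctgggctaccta
Tek intron 1 common site, chr4:94751423-94751622: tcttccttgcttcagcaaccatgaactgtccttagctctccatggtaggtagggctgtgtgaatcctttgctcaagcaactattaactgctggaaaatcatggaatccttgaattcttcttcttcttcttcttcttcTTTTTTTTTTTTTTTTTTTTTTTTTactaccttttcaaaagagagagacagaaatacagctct
Cdh5 upstream, chr8:104093855-104094054: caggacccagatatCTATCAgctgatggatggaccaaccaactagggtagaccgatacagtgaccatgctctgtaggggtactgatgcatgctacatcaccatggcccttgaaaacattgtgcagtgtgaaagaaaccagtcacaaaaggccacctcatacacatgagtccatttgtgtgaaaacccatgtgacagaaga
Pecam1 upstream common site, chr11:106742284-106742483: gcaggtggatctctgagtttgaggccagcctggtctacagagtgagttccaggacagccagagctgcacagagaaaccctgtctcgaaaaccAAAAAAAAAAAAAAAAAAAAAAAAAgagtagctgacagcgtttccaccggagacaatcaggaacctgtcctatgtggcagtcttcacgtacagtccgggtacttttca
Pecam1 intron 2, chr11:106707834-106708033: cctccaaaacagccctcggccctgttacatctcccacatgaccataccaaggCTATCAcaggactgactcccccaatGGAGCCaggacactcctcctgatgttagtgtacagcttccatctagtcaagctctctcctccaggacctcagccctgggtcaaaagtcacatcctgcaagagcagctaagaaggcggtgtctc
Pecam1 downstream common site, chr11:106645592-106645791: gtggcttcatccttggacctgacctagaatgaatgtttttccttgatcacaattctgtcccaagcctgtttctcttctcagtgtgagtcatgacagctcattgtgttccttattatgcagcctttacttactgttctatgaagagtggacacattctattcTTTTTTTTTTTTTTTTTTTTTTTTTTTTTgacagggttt
The Smad elements searched were GGCGCC or GGAGCC or GTCTAGAC or CAGACA, and the GATA elements were AGATAA or AGATAG or TGATAA or TGATAG, each on both strands. In the 4 common sites shown the capitals fell on a run of A or T.

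Across the genes, the share with a listed peak was near that of all protein-coding genes for most lists. A common DMSO site lay within 20 kb of 3 of the 10 regulators, Etv2, Tek and Pecam1, where 35.1% of all protein-coding genes had one. The DMSO MACS list added Cdh5 and reached 4 of 10, beside 44.2% of all genes. The DMSO QESEQ list reached 6 of 10, namely Etv2, Fli1, Erg, Tek, Pecam1 and Sox18, beside 60.2%. With IWR-1, QESEQ listed a peak at 4 of 10, Etv2, Erg, Tek and Pecam1, beside 47.2%. The second MACS list held a peak at Kdr, Etv2, Tek and Pecam1, 4 of 10 beside 26.8%. Etv2, Tek and Pecam1 had a peak from each of the 5 lists, 3 of 10 where 15.2% of all genes did. At Etv2 the DMSO and the IWR-1 peaks were at different places. No peak of any list was found at 2 of 10, where 28.3% of all genes had none.

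**Figure D1:**
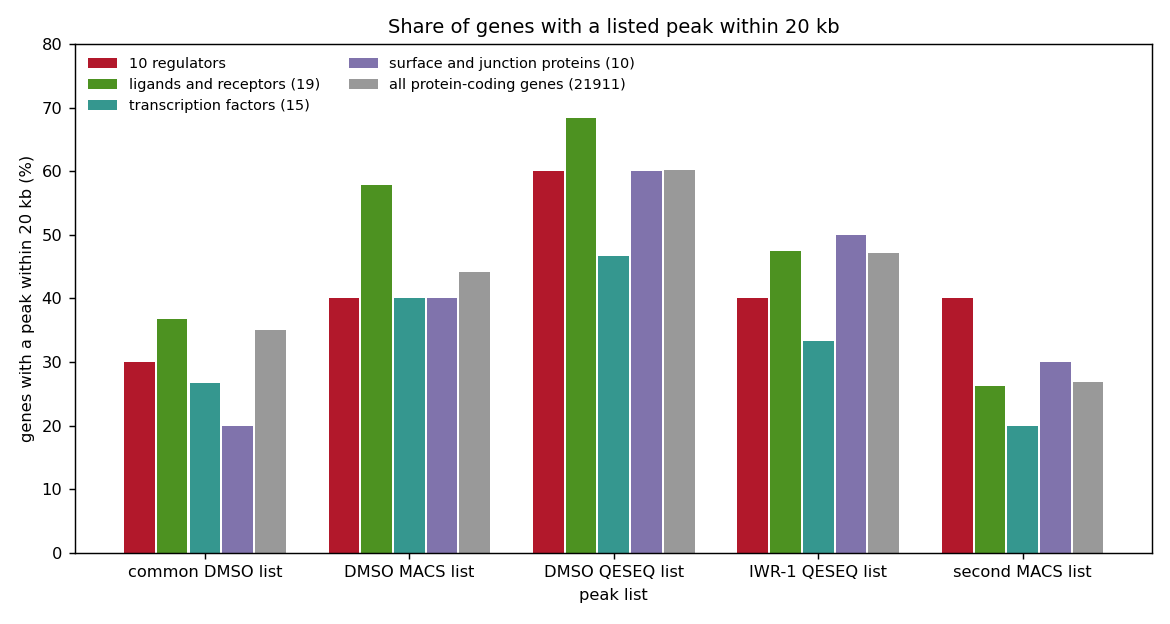
Bars give the percentage of genes with a peak within 20 kb of the gene body for each of the 5 lists, for the 10 regulators, for 3 lists of other vascular genes with the number of genes in brackets, and for all 21911 protein-coding genes. The regulators lie below or near all genes for the 4 lists other than the second MACS list, where 4 of 10 had a peak beside 26.8% of all genes.

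Long genes have wide windows, so peaks were also counted per 100 kb of window. Over the 1086 kb of the 10 windows there were 0.46 common DMSO sites per 100 kb, beside 0.575 over all protein-coding genes. The DMSO MACS list gave 0.829 beside 0.805 and the DMSO QESEQ list 1.2 beside 1.49 peaks per 100 kb. The IWR-1 QESEQ list gave 0.921 beside 0.936, and the second MACS list 0.644 beside 0.398. Tek and Pecam1 held 33 of the 44 peaks and 12 of the 20 merged loci, so the pooled values mostly describe these genes. Their windows span 176 and 136 kb, and per 100 kb Tek had 1.14 to 1.71 peaks across the lists and Pecam1 1.47 to 4.4. Etv2, with 1 peak per list in a window of 42.2 kb, had 2.37 in each list. This was above Tek in all 5 lists and above Pecam1 in the common list and the second MACS list. In short windows 1 peak gives such a value, and Sox18, with 1 peak in 41.8 kb, had 2.39 in the DMSO QESEQ list.

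**Figure D2:**
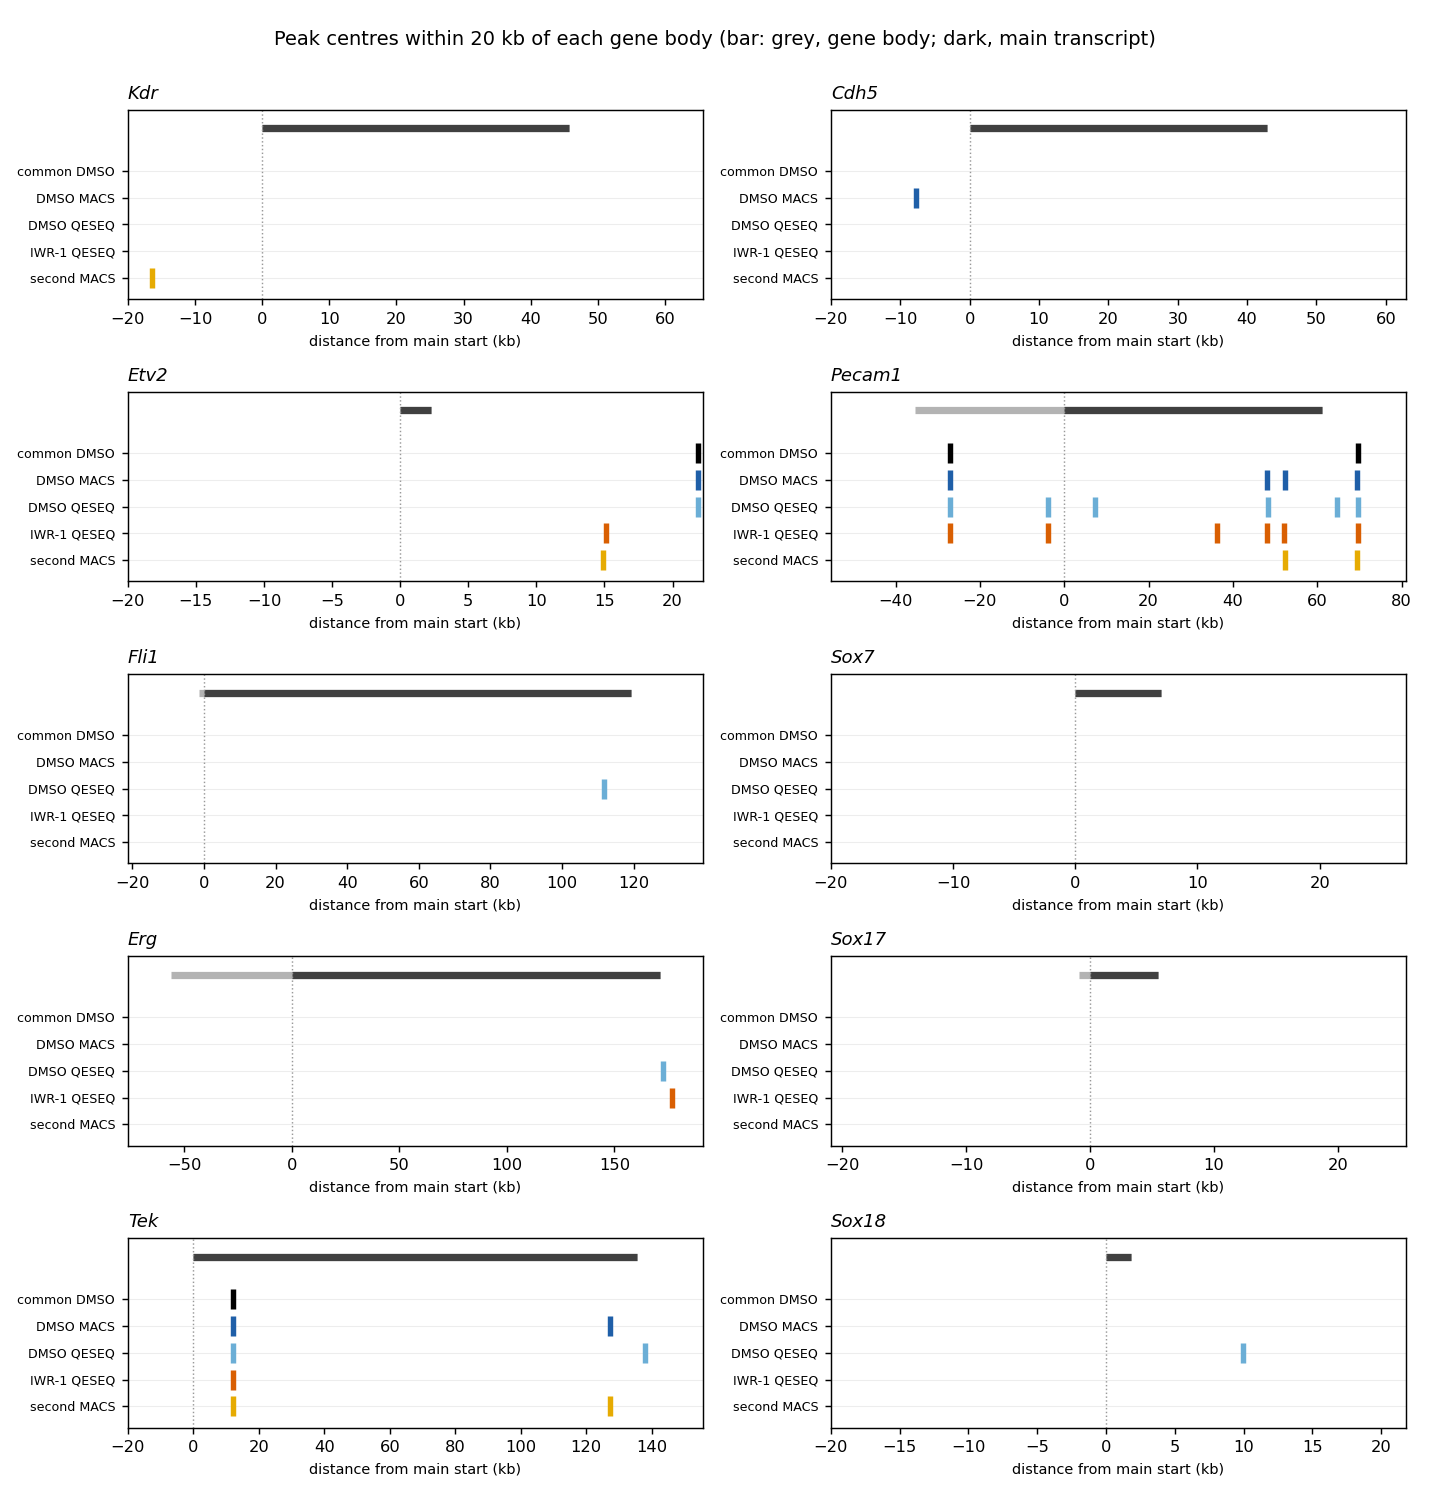
Each panel is the window of a gene, with distance in kb from the start of the main coding transcript on the horizontal axis and a row for each list, where a tick marks the centre of a peak, with 1 locus at Tek not drawn; the upper bar is the gene body, with the main transcript dark. Most ticks are in the wide windows of Tek and Pecam1, and the panels of Sox7 and Sox17 are empty.

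Kdr encodes the main VEGF receptor of endothelial progenitors, also called Flk-1. Its body spans chr5:75932827-75978458 on the minus strand. The only peak in its window was in the second MACS list, at chr5:75994750-75995102 in intergenic sequence, centred 16.5 kb upstream of the start. With a score of 67.0, it ranked at percentile 59.7 of that list. The peak held no Smad or GATA element over its whole width, and it held a run of 42 A. The DMSO lists had no peak in the window of Kdr, and the nearest common DMSO site was centred 253 kb away.

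Etv2, an ETS factor required for hemangioblast formation, spans chr7:30633616-30635852 on the minus strand, and the bodies of Cox6b1, Haus5 and Rbm42 reach into its window. The common DMSO site lay at chr7:30613762-30614168 in intergenic sequence, centred 21.9 kb downstream of the Etv2 start and 1118 bp from that of Upk1a, the nearest gene start. Its DMSO MACS score was 98.9, at percentile 88.2. The whole site held the GATA elements AGATAG and TGATAA but no Smad element. Neither IWR-1 list had a call at this site. Both had a peak at another place, within intron 3 of Cox6b1, from 30620333 to 30621204 by QESEQ and from 30620715 to 30621168 in the second MACS list, where no DMSO list had a peak. The second MACS score there was 65.8, at percentile 57.5, and the QESEQ peak held AGATAA and TGATAA and the TCF/LEF element CTTTGAT. Thus the DMSO and the IWR-1 calls near Etv2 did not overlap. Of all merged loci, 24.4% were called in a DMSO list and an IWR-1 list.

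The other ETS factors, Fli1 and Erg, which sustain endothelial and blood gene programs, had calls of QESEQ alone. At Fli1 (chr9:32422204-32542861, minus strand) the DMSO QESEQ list had a peak at chr9:32429453-32429980, over coding exon 6 and parts of introns 5 and 6, centred 112 kb downstream of the start. It held the Smad element CAGACA and a run of 25 A. At Erg (chr16:95359169-95586593, minus strand) a DMSO QESEQ peak lay past the end of the gene at chr16:95357609-95358109, with the Smad element GGAGCC. An IWR-1 QESEQ peak lay further downstream at chr16:95353249-95353733, with CAGACA; their centres were 173 and 177 kb from the start. The peaks at Erg did not overlap, where 24.4% of all merged loci had calls in both treatments. None of the 3 loci at Fli1 and Erg was listed by MACS.

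Tek encodes Tie2, the angiopoietin receptor of endothelial cells, and spans chr4:94739289-94874976 on the plus strand with no other protein-coding gene in its window. A common DMSO site in intron 1, chr4:94751286-94751758, was centred 12.2 kb downstream of the start and had a score of 63.4, at percentile 45.5. It was called in both IWR-1 lists. In the second MACS list its score was 56.5, at percentile 30.4 of that list. Scores are ranked within a list only, so these values do not measure a change in height.

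The MACS peak at Tek with the highest score in either list was in neither QESEQ list. It lay in intron 21 at chr4:94866399-94866881, with a score of 133 at percentile 94.5 of the DMSO MACS list, and at chr4:94866484-94866774 with a score of 123 at percentile 91.1 of the second MACS list. Both peaks held a run of 34 A or T. Repeat-masked bases made up 67.1% of the DMSO peak and 100% of the narrower peak of the second list, and only the DMSO peak held the GATA element TGATAG. A DMSO QESEQ peak past the end of the gene, chr4:94877077-94877384, held the GATA elements AGATAG and TGATAG and had no call in the other lists.

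Cdh5 encodes VE-cadherin, the adhesion protein of endothelial junctions, and spans chr8:104101625-104144511 on the plus strand. The DMSO MACS list had a peak at chr8:104093668-104094240, centred 7.67 kb upstream of the start within the noncoding gene Gm29682, with a score of 92.0 at percentile 85.0. It held the GATA element TGATAG, no Smad element and no run of 7 A. It was not in the DMSO QESEQ list, so it was no common site, and neither IWR-1 list had a peak in the window of Cdh5.

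Pecam1 encodes the endothelial surface protein CD31. Its body spans chr11:106654217-106750628 on the minus strand, the main transcript ends at 106715259 on its upstream side, and the bodies of Milr1 and Polg2 reach into the window. It had 8 merged loci, the most of the 10 genes, and 20 of the 44 peaks. A common DMSO site at chr11:106742151-106742615, within the gene body but 27.1 kb upstream of the main start, had a score of 71.5 at percentile 62.8. A further common site at chr11:106645443-106645940, downstream of the gene, had a score of 91.8 at percentile 84.8. QESEQ called both sites with IWR-1, and the second MACS list held the downstream site, from 106645475 to 106645919, with a score of 64.1.

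Within intron 14 of Pecam1, 2 loci were called by 3 of the 4 lists that come straight from a caller. At the first, the DMSO MACS peak chr11:106662705-106663217 had a score of 76.7 and the second MACS peak, 106662716 to 106663168, a score of 93.3, and QESEQ called it with IWR-1 but not with DMSO. At the next, chr11:106667070-106667420, the DMSO MACS score was 58.7, and QESEQ called it with both treatments. The locus nearest to the main start of its own regulator among all 20 was also at Pecam1, 3.89 kb upstream, called by QESEQ with DMSO from 106719010 to 106719363 and with IWR-1 from 106718936 to 106719312.

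The remaining 3 loci at Pecam1 were QESEQ calls in a single list. A DMSO peak in intron 2, chr11:106707709-106708157, was the only locus of the 20 whose central 200 bp held both a Smad element, GGAGCC, and a GATA element, TGATAG. An IWR-1 peak in intron 13, chr11:106678795-106679269, held CAGACA centrally and had no DMSO call. A DMSO peak downstream of the gene, chr11:106650246-106650770, held no Smad or GATA element.

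The SoxF factors Sox7, Sox17 and Sox18 act in early endothelium and in the choice of arterial and lymphatic fate. Sox18 (chr2:181669836-181671640, minus strand), with the bodies of Gm29797, Prpf6, Rgs19 and Tcea2 reaching into its window, had a DMSO QESEQ peak at chr2:181661443-181661876 in intergenic sequence, centred 9.98 kb downstream of its start but 4.62 kb from that of Gm29797. This peak held CAGACA and was in no other list. Sox7 (chr14:63943673-63950732, plus strand, with the body of 4930578I06Rik in its window) and Sox17 (chr1:4490931-4497354, minus strand) had 0 peaks in their windows in all 5 lists. For Sox17, the nearest common site was centred 38.1 kb upstream of the start, and for Sox7 the nearest peak of any list was a DMSO QESEQ peak 127 kb upstream.

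**Figure D3:**
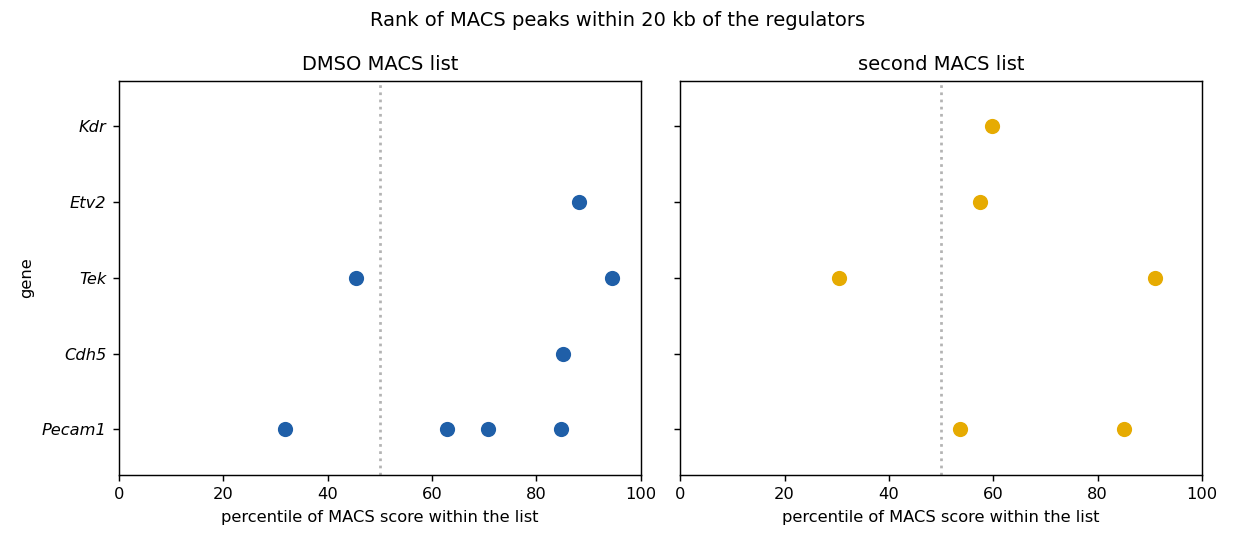
Points are the MACS peaks within 20 kb of the regulators, with 1 locus at Tek not drawn, with the percentile of the score within its own list on the horizontal axis, for the DMSO MACS list on the left and the second MACS list on the right, and a dotted line at percentile 50. The peak in intron 21 of Tek ranks highest in each list, at percentiles 94.5 and 91.1.

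The rule on distance mattered most for the DMSO calls near Etv2 and the lone peak of Kdr. The Etv2 common site lay 19.4 kb from the gene body, the farthest inside the limit, and the Kdr peak 16.3 kb from its gene body. The IWR-1 peaks near Etv2 were closer, 12412 bp from the body by QESEQ and 12448 bp in the second MACS list. Just outside, a DMSO QESEQ peak lay 22.5 kb from Erg, and a common site 26.5 kb from Tek had a score of 50.1.

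Positions of the 20 loci relative to the genes were mixed. Of these, 10 overlapped the body of their own regulator and 10 lay outside it, 3 of them in the body of another gene. By the outer start of each gene body, the nearest protein-coding start was that of the regulator itself for 6 of 20, and by the main start for 7 of 20. For the main start of any protein-coding gene, 0 of 20 loci were centred within 1 kb, beside 3.02% of all merged loci, and 3 of 20 (15.0%) within 5 kb, beside 13.6%. For the start of the regulator itself, 1 of 20 lay within 5 kb.

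Calls with IWR-1 were counted first on the common DMSO sites. QESEQ called 4 of the 5 sites with IWR-1 (80.0%, 95% exact binomial interval 28.4 to 99.5%), beside 37.0% of all 10466 common sites. The second MACS list held 3 of 5 (60.0%, interval 14.7 to 94.7%), beside 25.8%, and the same 3 sites were in both lists, beside 18.4%. The site with no IWR-1 call was that near Etv2. The median DMSO MACS percentile was 84.8 for the 5 sites and 52.8 for all common sites, and of all common sites with a score of at least 100, 65.8% had an IWR-1 QESEQ call. Only 1 of the 5 sites at the regulators had such a score. The part of the score in the regulators' share was not tested. These intervals describe counting error alone, and the sites at Tek and at Pecam1 share a gene.

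Over the merged loci, 8 of 20 (40.0%, interval 19.1 to 64.0%) were called in a DMSO list and an IWR-1 list, beside 24.4% of all loci, and all of these 8 lay at Tek and Pecam1. A further 8 of 20 had DMSO calls alone, beside 51.4%, and 4 of 20 had IWR-1 calls alone, beside 24.2%. The loci with IWR-1 calls alone were those upstream of Kdr, in Cox6b1 near Etv2, downstream of Erg and in intron 13 of Pecam1. For the Kdr locus, that reading rests on the second MACS list.

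**Figure D4:**
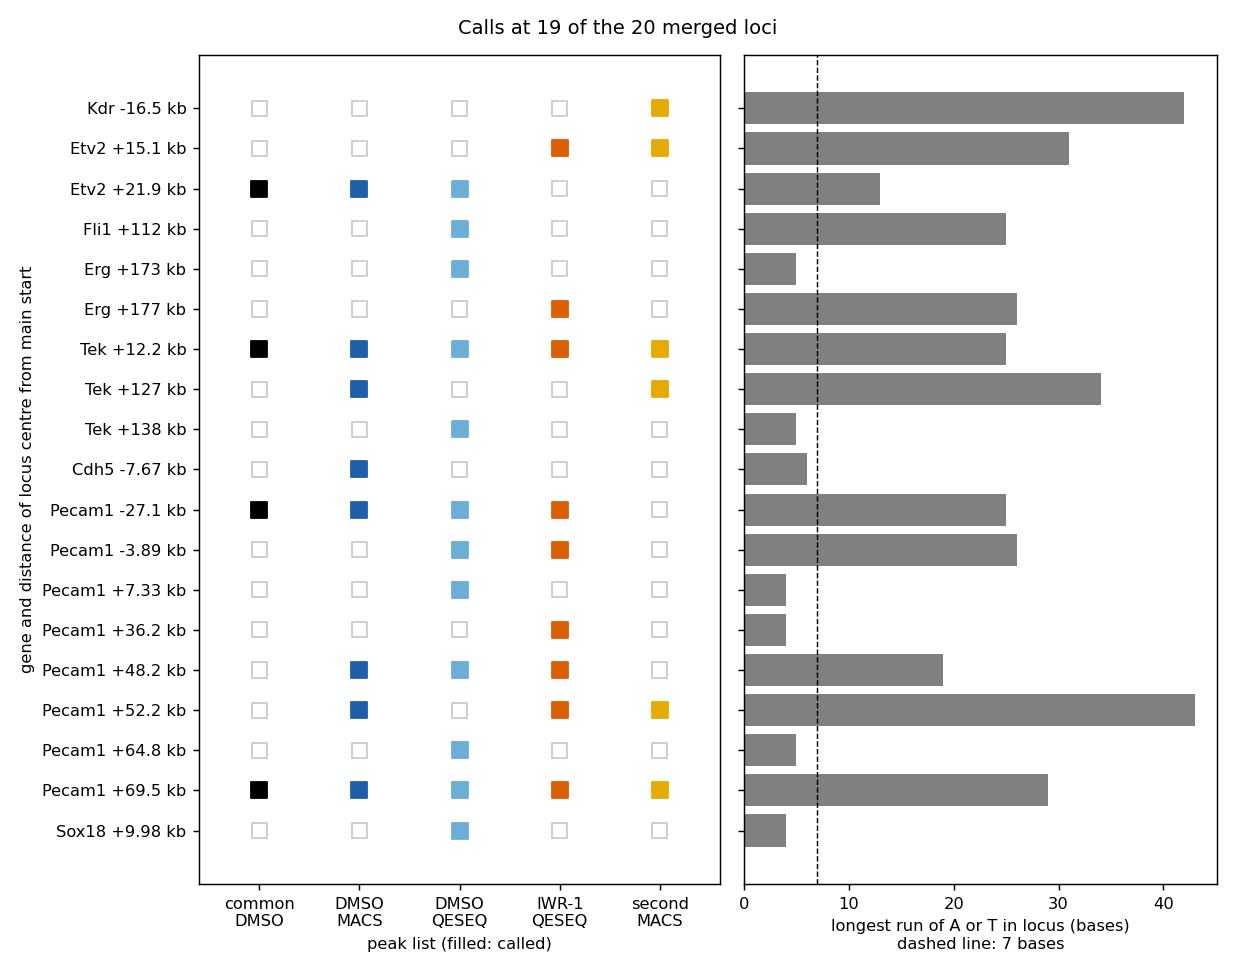
Rows are 19 of the 20 merged loci, named by gene and by distance of the centre from the main start in kb; filled squares on the left mark the lists with a call, and bars on the right give the longest run of A or T in the locus in bases, with a dashed line at 7. The 9 drawn loci called by 2 or more callers' lists all have runs of 13 to 43 bases.

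Smad elements were found in the central 200 bp of 0 of the 5 common sites, with an upper 95% limit of 52.2%, beside 22.1% of all common sites and 25.6% of windows 2 kb to either side. Over the whole sites the count was also 0 of 5, beside 44.2%. A GATA element lay in the central 200 bp of 1 of 5, beside 27.4% of all common sites and 34.1% of the neighbouring windows. Over the whole sites it was 3 of 5, beside 51.4%. The absence of a match says only that these letters are not in the window.

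Over the 20 merged loci, the central 200 bp held a Smad element in 3 (15.0%), beside 23.0% of all loci, and a GATA element in 5 (25.0%), beside 28.6%. The Smad matches were in introns 2 and 13 of Pecam1 and at Sox18, each in a QESEQ call of a single list. The GATA matches included the IWR-1 locus near Etv2 and those past the end of Tek, upstream of Cdh5 and in intron 2 of Pecam1. Over whole loci the counts were 9 of 20 for Smad, beside 49.1%, and 10 of 20 for GATA, beside 58.0%. Whole loci can be wider than the common sites in them: the intron 1 locus of Tek held CAGACA only in the part that the IWR-1 QESEQ peak added.

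Other elements were searched in the same central windows of the 5 common sites. The AP-1 element TGACTCA was in the downstream site of Pecam1, 1 of 5 beside 2.91% of all common sites. The ETS element CAGGAA was in its upstream site, and with CCGGAA as the other form 1 of 5 held an ETS element, beside 18.1%. The TCF/LEF elements CTTTGAT or CTTTGTT and the E-box CAGATG, whose other strand reads CATCTG, were in 0 of 5, beside 8.86% and 11.6%. Over the whole sites, an ETS element was in 3 of 5, beside 37.5% of all common sites, and 1 of 5 held a TCF/LEF element, beside 18.3%, 1 of 5 an E-box, beside 25.5%, and 1 of 5 the AP-1 element, beside 6.68%. Over the 20 merged loci, a TCF/LEF element lay in the central 200 bp of 2, the IWR-1 locus near Etv2 and the DMSO peak of Fli1, beside 8.48% of all loci. Over whole loci it was in 5, beside 20.6%, with the further ones in intron 21 of Tek and, at Pecam1, in the upstream common site and in intron 13. An ETS element lay in the central 200 bp of 1 of 20 loci, beside 18.8%, and over the whole locus in 6, beside 42.3%. The AP-1 element was in 1 centrally, beside 2.88%, and in 4 over whole loci, beside 7.66%, and the E-box in 3, beside 12.8%, and in 8, beside 31.3%.

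Runs of at least 7 A or T were in 10 of the 20 merged loci (50.0%) in the central 200 bp, beside 60.5% of all loci, and in 13 of 20 (65.0%) over whole loci, beside 76.4%. All 5 common sites held such a run in the central 200 bp, beside 76.1% of all common sites and 15.1% of windows 2 kb to either side. Over whole loci, the 10 of 20 loci called in 2 or more of the 4 callers' lists all held one, with a longest run of 13 to 43 bases, beside 92.1% of all loci called that often. Of the 10 called in 1 list, 3 held one, beside 65.0%. The median share of repeat-masked bases was 46.6% over the 5 sites and 38.2% over all common sites, and median GC content was 43.3 and 41.5%. The part of these runs and repeats in the calls was not tested.

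Other genes of vascular development were counted in the same way, in 3 lists of ligands and receptors, transcription factors, and surface and junction proteins. A common DMSO site lay within 20 kb of 7 of 19 ligands and receptors, 4 of 15 transcription factors and 2 of 10 surface and junction proteins, together 13 of 44 (29.5%), beside 35.1% of all protein-coding genes. Together 21 of 44 (47.7%) had a peak of the DMSO MACS list, beside 44.2%, and 26 (59.1%) of the DMSO QESEQ list, beside 60.2%. With IWR-1, 19 (43.2%) had a QESEQ peak, beside 47.2%, and 11 (25.0%) a peak of the second MACS list, beside 26.8%. No peak of any list was found at 12 of 44 (27.3%), beside 28.3%. By gene list, these were 1 of 19 ligands and receptors (5.26%), 7 of 15 transcription factors (46.7%) and 4 of 10 surface and junction proteins (40.0%). The difference between these gene lists was not tested.

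Among the ligands and receptors, the site at the VEGF co-receptor Nrp1 ranked highest, at percentile 89.9 of DMSO MACS scores, followed by the Notch ligand Jag1 at 87.1 and the peptide ligand Apln at 69.5. The highest sites at the VEGF receptor Flt1 and at Eng, the BMP co-receptor endoglin, were at percentiles 43.8 and 43.3, and those at Notch1 and the BMP receptor Acvrl1 at 10.3 and 4.22. The highest Eng site lay within the body of Fpgs, 53.0 kb from the Eng start, and the Notch1 site within the noncoding gene 0610009E02Rik. Of the transcription factors, Foxc1 had the highest site, at percentile 92.1 in intron 9 of Gmds, before Nr2f2 at 62.9 within the noncoding gene B130024G19Rik, Mef2c at 60.5 and Foxo1 at 49.9. The surface proteins with a site were Vwf, at percentile 46.8, and Plvap, at 32.8. Of the 21 common sites at these 13 genes, 7 (33.3%, interval 14.59 to 56.97%) had an IWR-1 QESEQ call, beside 37.0% of all common sites, and 4 (19.0%) a call in the second MACS list, beside 25.8%. The same shares were 4 of 5 and 3 of 5 at the regulators, and the difference was not tested.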

How the data were processed

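The authors aligned reads to mm10 with Bowtie2 2.1.0, removed PCR duplicates, and called peaks per treatment, 1 ChIP library each, with MACS (p-value cutoff 1e-05) and QESEQ (0.05). The score used here is the one the authors deposited for each MACS peak, lowest 50; QESEQ lists hold no score. A common site took the highest overlapping DMSO MACS score. Members and lists were chosen with earlier results of these data known. Named were the 10 regulators with every peak within 20 kb, protein-coding neighbours with bodies in their windows, and listed vascular genes with a common site; Upk1a, Gm29682, host genes of listed vascular sites and the genes of the sites beyond 20 kb were named after their values were seen, and the comparisons of A runs by number of lists and of IWR-1 calls by score were chosen then too. At Tek, 1 locus is counted but not otherwise reported here. Overlap was counted from 1 bp. Bases and repeat masking were read from GRCm38 of NCBI, the same build as mm10. The main transcript was the first-numbered coding one with the principal annotation. Python 3.11.15, numpy 2.4.6, pandas 2.3.3, scipy 1.17.1 and matplotlib 3.10.9 were used, and the steps for overlaps and motifs were checked with simulated peaks. No test was run, having 1 library per treatment. Alternatives covered window, gene model, nearest start, score, overlap and motif width.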

Additional observations from a re-analysis of the deposited data

How the results depend on the processing

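A window of 50 kb raised the genes with a common DMSO site from 3 to 6, with a DMSO MACS peak from 4 to 7 and with an IWR-1 QESEQ peak from 4 to 7; over all protein-coding genes these shares rose to 52.1, 63.3 and 64.7%. A window of 10 kb lowered those with a peak of the second MACS list from 4 to 2, beside 20.5% of all genes. Keeping only peaks whose nearest gene start, at the outer end of the gene body, was that of the regulator left 2 genes for the DMSO QESEQ list, 2 for the IWR-1 QESEQ list and 2 for the second MACS list, beside 42.3, 30.8 and 16.5% of all genes. With main starts instead, an alternative chosen after seeing the data, these lists kept 2 genes each, beside 42.7, 31.2 and 16.8%, and the common list went from 3 to 1, beside 22.5%. A MACS score of at least 100 left 1 gene in the DMSO MACS list and 1 in the second, beside 7.15 and 3.8%. The share of common sites with an IWR-1 QESEQ call was 100.0% within 10 kb (4 of 4), 100.0% at a score of at least 100 (1 of 1, beside 65.8% of all such sites) and 100.0% for sites nearest to the regulator (2 of 2, or 1 of 1 by main starts); these settings hold fewer sites. All 5 sites held a run of 7 A, so leaving such sites out gave no value. The other alternatives kept counts within 1.5 times, and shares within the counting interval. Without read counts or replicates, a lost call and a lower peak cannot be told apart.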

Other observations

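Between 20 and 50 kb from the gene bodies lay 8 further common DMSO sites, at 5 of the 10 genes. Of these, 5 of 8 had an IWR-1 QESEQ call, beside 37.0% of all common sites, and 2 of 8 a call in the second MACS list, beside 25.8%. The pair in both lists lay around Pecam1, at chr11:106618504-106618862 with a score of 110.5 and at chr11:106778606-106779057 with a score of 101.1, and the nearest outer gene starts were those of Tex2 and Polg2. The Sox17 site, chr1:4534283-4534657, had a score of 77.3 at percentile 71.7, an IWR-1 QESEQ call and Sox17 as its nearest outer gene start. The Fli1 site, chr9:32574582-32574809, centred 33.1 kb upstream, had a score of 62.4 and no IWR-1 call. These genes and sites were singled out after their values were seen.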
